A study of Mus musculus with 19 samples.

Results

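The proteasome is the protease that degrades most ubiquitin-tagged proteins in the cell. Its barrel, the 20S core, is built of alpha rings that gate the entrance and beta rings that carry the proteolytic sites. The 19S cap sits on the ends of the barrel. The base of the cap holds a ring of ATPases that unfold substrates and thread them into the core, and its lid removes the ubiquitin chains. Hepatocytes depend on this machinery to turn over secretory, metabolic and damaged proteins, and liver cells adjust subunit transcripts together, mainly through the transcription factor NRF1 (gene Nfe2l1). The genes described here were the rows of the liver RNA-seq table whose symbol starts with Psma, Psmb, Psmc, Psmd or Psme, with the inducible catalytic subunit genes Psmb8 and Psmb9 left out by that rule. This gave 43 of 24054 rows, and 39 of the 43 passed a filter on low values.

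The mice carried Raly flox/flox alleles on a C57BL/6 background, were male and were fed chow. Raly encodes an RNA-binding protein that the study examined as a regulator of liver gene expression. The 3 L-RalyKO mice received AAV8.TBG.Cre and the 3 control mice received AAV8.TBG.GFP, so that both groups carried the floxed alleles and a virus, although the sample titles call the controls wild type. The TBG promoter is active in hepatocytes, and Raly in the other cells of the liver was not targeted. The ages of these mice were not given in the sources used here. RNA came from whole liver, in which fewer cells of a type and less RNA per cell cannot be told apart.

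Values are reads per gene divided by the effective library size, times 1e+06, and are called scaled reads below. They were not divided by gene length. The libraries held 28302983 to 38052705 recovered reads, and a tested proteasome gene had from 209 reads (Psmd10) to 6570 reads (Psmd2) in a mouse. Raly fell from 48.5 ± 1.67 scaled reads in controls to 6.78 ± 0.546 in L-RalyKO (SD, n = 3 each; log2 fold change -2.67, adjusted p = 6.92e-07, limma). Summed hepatocyte markers ran from 84962 to 93557 scaled reads in controls and from 94003 to 95369 in L-RalyKO, so the groups did not overlap. Alb made up most of that sum and itself overlapped between groups. Of 7 hepatocyte markers 1 rose at an adjusted p under 0.05, Hnf4a, with a log2 fold change of 0.55 (limma adjusted p = 0.0155). The other 6 did not pass, with Apoa1 and Cps1 wholly higher, Apoa2 wholly lower (4053 ± 255.3 against 3580 ± 217.8 scaled reads, SD, n = 3) and Alb, Ttr and Tat overlapping. The part of these shifts in the results below was not tested. None of the markers of Kupffer cells, endothelial cells, stellate cells and cholangiocytes that were tested passed, and their summed levels overlapped between groups. Among them 2 cholangiocyte markers were wholly higher in L-RalyKO, Sox9 (3.11 ± 0.838 against 4.95 ± 0.823 scaled reads, SD, n = 3; limma adjusted p = 0.0774) and Krt19, which lay under the filter (0.396 ± 0.064 against 0.754 ± 0.350), while Spp1 made up most of that list's sum. All 9 markers of T, B and NK cells in the table lay under the filter, with sums of 1.95 to 3.44 in controls and 2.47 to 2.58 in L-RalyKO.

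The tested proteasome genes differed by small amounts between L-RalyKO and control livers. None of the 39 tested members passed an adjusted p of 0.05 (limma on log2(scaled reads + 1), Benjamini-Hochberg over all 11580 genes tested), against 6.55% of all genes in either direction. The edgeR and DESeq2 fits also called 0 of 39. At an unadjusted p under 0.05, 8 members were lower and 1 was higher. That is 20.5% of the members on the lower side, where the share among all genes was 10.9% (11.8% on the higher side). In either direction 9 members had such a p, and 5 had one without L-RalyKO mouse 3 or without control mouse 1. The 95% interval of every tested member lay within a 1.5-fold change in either direction, from a lowest bound of -0.37 to a highest bound of 0.31 on the log2 scale. The intervals of 9 members excluded 0.

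Most of the small differences pointed downwards. The log2 fold change was below 0 in 29 of 39 members (74.4%), against 48.8% of all genes tested, and its median was -0.06 against 0.00 for all genes. The 31 tested members of the 20S core and the 19S cap accounted for 26 of those 29, with a median of -0.07. Scaling the libraries by total reads in place of the deposited scaling put 35 of 39 members and 31 of 31 core and cap genes below 0, together with 58.6% of all genes. All 3 L-RalyKO mice lay below all 3 controls in 11 members (28.2% of the members, against 13.7% of all genes), and above them in 1 member (against 14.4% of all genes). In either direction this came to 30.8% of the members and 28.1% of all genes. For single genes measured in 3 against 3 mice, an exact two-sided permutation test cannot go below p = 0.1, and each of these 12 members reached that value. The members share libraries and are not independent of each other.

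**Figure D1:**
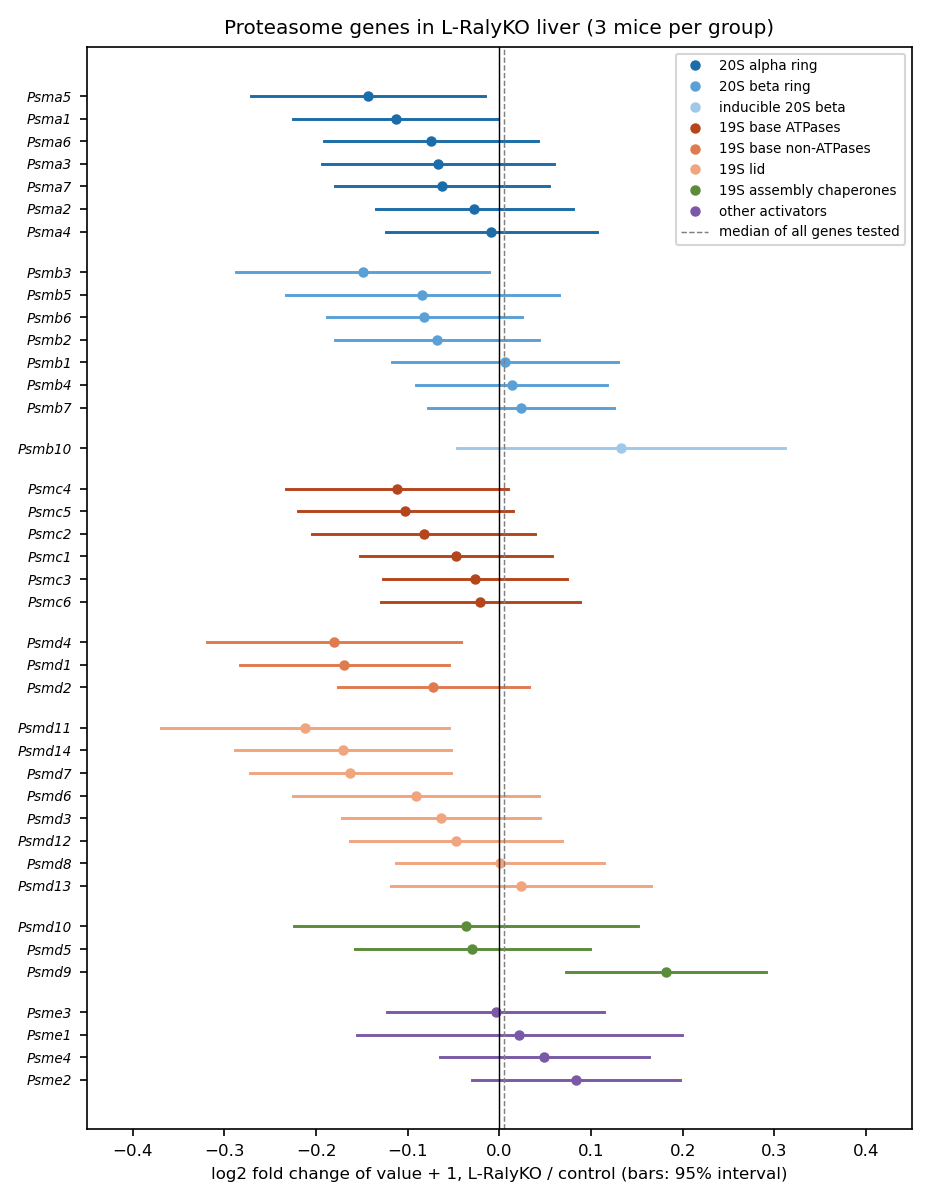
Log2 fold change of scaled reads + 1 between 3 L-RalyKO and 3 control livers for each tested proteasome gene, with its 95% interval from limma, by subcomplex. Points run from -0.21 (Psmd11) to 0.18 (Psmd9), and 29 of 39 lie below 0.

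The alpha ring of the 20S core forms the gated outer wall of the barrel. All 7 tested alpha subunit genes had a log2 fold change below 0, with a median of -0.07, and none passed the adjusted threshold. The median was -0.04 without L-RalyKO mouse 3 and -0.10 without L-RalyKO mouse 2. Psma5 read 55.0, 53.5 and 52.0 scaled reads in the control mice and 51.5, 47.3 and 46.4 in the L-RalyKO mice. All 3 L-RalyKO mice were thus below the lowest control, by a narrow margin in L-RalyKO mouse 1. Its mean was 9.56% lower (log2 fold change -0.14, SE 0.056, limma adjusted p = 0.173). Of the 50-base words of Psma5 transcripts, 38.0% also occur in Gm8394, listed in RefSeq as the pseudogene Psma5-ps, so reads of the pair could have been split or shared in counting. Psma4 was the alpha subunit gene nearest to 0 and turned above it in 3 of the 6 fits without a mouse, at 81.7 ± 2.95 against 81.2 ± 2.81 scaled reads (SD, n = 3).

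The beta ring holds the proteolytic sites. Its 7 constitutive genes had a median log2 fold change of -0.07, with 4 below 0 and 3 above, and a median of -0.04 without control mouse 1. Psmb5, which carries the chymotrypsin-like site, read 72.0, 66.6 and 63.3 scaled reads in controls and 61.7, 67.8 and 60.7 in L-RalyKO, so that the groups overlapped (log2 fold change -0.08, limma adjusted p = 0.491; -0.04 without control mouse 1 and -0.13 without L-RalyKO mouse 2). Psmb6, with the caspase-like site, read 82.4, 79.6 and 78.9 in controls and 76.0, 77.8 and 73.6 in L-RalyKO. These groups were separate, but the difference of 5.58% did not pass the test (log2 fold change -0.08, limma adjusted p = 0.342). Psmb7, with the trypsin-like site, read 96.2, 94.1 and 94.5 in controls and 96.6, 99.1 and 93.9 in L-RalyKO. With all mice it had the highest log2 fold change of the ring at 0.02. That value was 0.00445 without L-RalyKO mouse 2 and 0.0431 without L-RalyKO mouse 3. Of the 3 catalytic subunit genes of the constitutive core, none passed the test.

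Psmb3, a structural beta subunit gene, had the lowest log2 fold change of the ring and of the whole core with all mice included. It read 56.8, 58.7 and 55.4 scaled reads in controls and 50.5, 55.3 and 48.3 in L-RalyKO, with L-RalyKO mouse 2 just under the lowest control. The difference was 9.87% (log2 fold change -0.15, SE 0.061, limma adjusted p = 0.188). Without L-RalyKO mouse 1 the log2 fold change was -0.14, above that of Psma5 (-0.19). Of the 50-base words of Psmb3, 26.9% also occur in other annotated genes. Psmb10, the interferon-inducible counterpart of Psmb7 that replaces it in the immunoproteasome, read 17.9, 20.2 and 20.3 in controls and 20.2, 20.7 and 23.4 in L-RalyKO. It overlapped between groups (log2 fold change 0.13, limma adjusted p = 0.362), with the highest value in L-RalyKO mouse 3 and a log2 fold change of 0.07 without that mouse or without control mouse 1.

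The 6 ATPases of the 19S base, Psmc1 to Psmc6, form the unfolding ring. All 6 had log2 fold changes below 0, from -0.11 (Psmc4) to -0.02 (Psmc6), with a median of -0.06. Psmc4 read 74.5, 68.7 and 68.2 scaled reads in controls and 67.0, 63.2 and 65.0 in L-RalyKO, with no overlap (7.64% lower, limma adjusted p = 0.255). Without control mouse 1 its log2 fold change was -0.07. Psmc6 read 69.4, 70.4 and 70.9 in controls and 72.2, 67.0 and 68.6 in L-RalyKO, with the L-RalyKO mice on both sides of the controls.

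The 3 non-ATPase genes of the base among the members encode the large scaffold subunits Psmd1 and Psmd2 and the ubiquitin receptor Psmd4. They had the lowest median of any subcomplex, -0.17, and 3 of 3 were below 0. Adrm1, a ubiquitin receptor of the cap outside the symbol rule, is given with the associated factors below and is not in this median. Psmd1 (chr1:87960962-88059363, plus strand, mm9) read 126.8, 116.4 and 121.7 scaled reads in controls and 109.8, 109.6 and 104.6 in L-RalyKO. The L-RalyKO mice lay close together and below every control, and the mean was 11.2% lower (log2 fold change -0.17, SE 0.050, limma adjusted p = 0.0834). Exons of Psmd1 overlap those of Armc9 on the same strand and of Htr2b on the opposite strand, and whether the counting used strand was not stated. Among the other tested members, Psmb5 exons overlap Mir686 on the same strand. Exons of Psma4, Psma5, Psmb7, Psmc3, Psmd3, Psmd13 and Psme1 overlap those of another gene on the opposite strand. Psmd4 (chr3:94836616-94846536, minus strand) read 82.4, 75.2 and 75.7 in controls and 69.0, 72.3 and 64.4 in L-RalyKO. The groups did not overlap, and the mean was 11.9% lower (log2 fold change -0.18, SE 0.061, limma adjusted p = 0.118). Psmd2 overlapped between groups, at 177.5 ± 3.32 against 168.9 ± 5.35 (SD, n = 3).

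The 8 genes of the 19S lid among the members had a median log2 fold change of -0.08, with 6 below 0. Without L-RalyKO mouse 3 the median was -0.04. Psmd11 (chr11:80242117-80286750, plus strand), which encodes a structural lid subunit, had the lowest log2 fold change of all 39 members with all mice included. It read 82.3, 78.8 and 82.5 scaled reads in controls and 74.9, 72.7 and 62.8 in L-RalyKO. All L-RalyKO mice were below all controls, and the mean was 13.6% lower (log2 fold change -0.21, SE 0.069, limma adjusted p = 0.108). L-RalyKO mouse 3 stood lowest, and without it the log2 fold change was -0.14, no longer below those of Psmd14 (-0.16) and Psmd1 (-0.15). Psmd14 (chr2:61549751-61638433, plus strand), the metalloprotease that cuts ubiquitin chains off substrates, read 46.5, 43.4 and 43.0 in controls and 39.9, 39.3 and 38.5 in L-RalyKO. Its L-RalyKO values were tightly grouped below the controls, and its mean was 11.4% lower (log2 fold change -0.17, SE 0.052, limma adjusted p = 0.0907). Psmd7 (chr8:110104281-110112382, minus strand), the partner of Psmd14 in the lid, read 57.6, 55.1 and 56.0 in controls and 50.2, 51.5 and 48.8 in L-RalyKO. The groups were again separate, with a mean 10.8% lower (log2 fold change -0.16, SE 0.048, limma adjusted p = 0.0833). Psmd13 had the highest value of the lid, a log2 fold change of 0.02, and its groups overlapped.

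**Figure D2:**
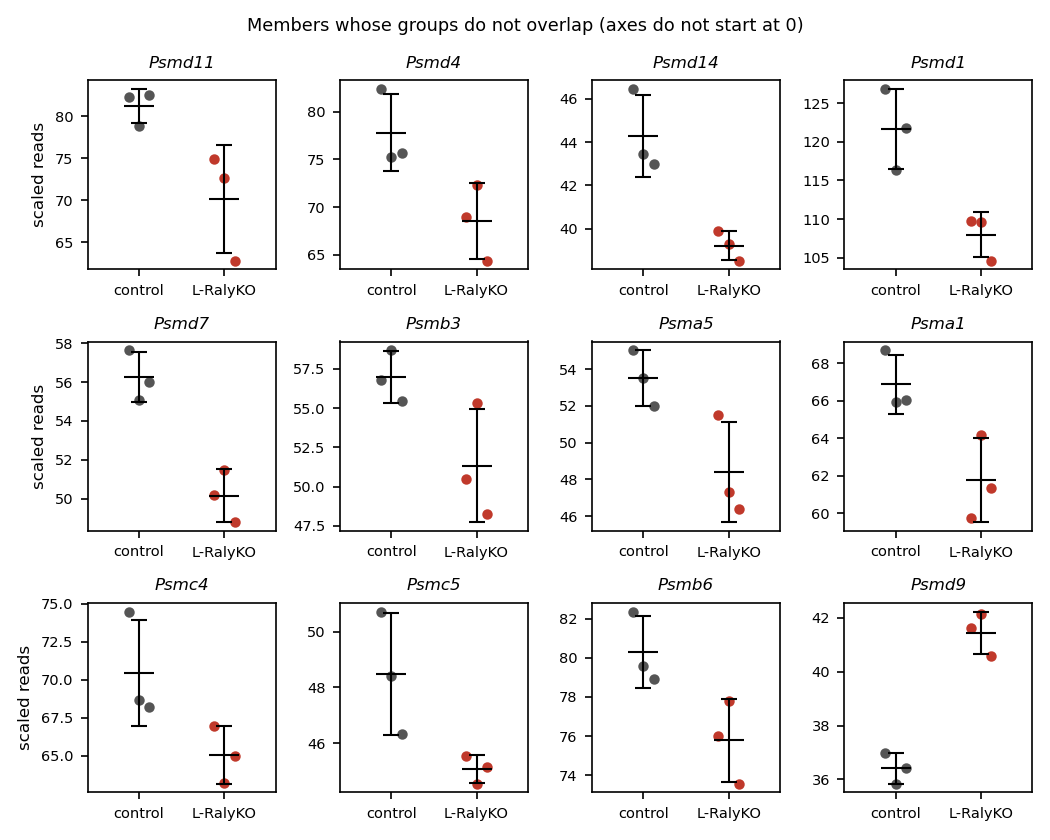
Scaled reads (reads relative to effective library size) of the 12 members in which the 3 L-RalyKO mice (red) and the 3 control mice (grey) do not overlap; points are mice, the horizontal mark is the mean and the bars are SD. The y axes do not start at 0, and 11 genes are lower in L-RalyKO and 1, Psmd9, is higher.

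The 3 assembly chaperone genes, Psmd5, Psmd9 and Psmd10, encode factors that help to build the ATPase ring and are absent from the finished particle. Psmd9 (chr5:123678199-123700140, plus strand) was the member with the lowest adjusted p in limma with all mice, and the only one wholly higher in L-RalyKO. It read 37.0, 35.8 and 36.4 scaled reads in controls and 41.6, 42.1 and 40.6 in L-RalyKO. The spread within each group was small beside the difference of 13.8% (log2 fold change 0.18, SE 0.048, 95% interval 0.07 to 0.29), but the limma adjusted p was 0.0595. Over the other processing choices and the fits leaving out a mouse, its adjusted p ranged from 0.0526 to 0.173. Another member had the lowest adjusted p with DESeq2, with total count scaling and in some fits without a mouse. Psmd5 and Psmd10 overlapped between groups, with log2 fold changes of -0.03 and -0.04.

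The activators bind the open ends of the core in place of the 19S cap. Psme1 and Psme2 encode the interferon-inducible PA28 alpha and beta subunits, Psme3 the nuclear PA28 gamma and Psme4 the activator PA200. Their median log2 fold change was 0.04, with 1 of 4 below 0, and none passed. Psme1 read 65.8, 70.3 and 57.4 scaled reads in controls and 65.6, 68.6 and 61.8 in L-RalyKO, within the spread of the controls. Psme2 read 44.8, 46.7 and 45.6 in controls and 49.7, 49.2 and 46.6 in L-RalyKO, with only the lowest L-RalyKO mouse inside the control range (log2 fold change 0.08, limma adjusted p = 0.364). Of the 50-base words of Psme2, 54.9% occur in Psme2b-ps, a near-identical copy, so its value is uncertain. Psme3 (59.2 ± 2.87 against 59.0 ± 0.987) and Psme4 (133.8 ± 5.26 against 138.5 ± 4.64) overlapped between groups (SD, n = 3).

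The 4 members under the filter were Psma8, Psmb11, Psme2b and Psmc3ip. Psma8 is the spermatogenic alpha subunit gene and read 1.55, 1.37 and 0.649 scaled reads in controls and 0.349, 1.07 and 0.500 in L-RalyKO, with overlap. Psmb11, the thymic beta subunit gene, read at most 0.135 in any mouse. Psme2b read from 0.270 to 0.605. Psmc3ip, a meiotic recombination factor that shares only the start of its symbol with the ATPase genes, read at most 0.184. Psma8 thus had 12 to 52 reads in a mouse and was detected in all 6, while Psmb11 had 0 to 5 reads.

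The mice of a group differed among themselves. The sum over the 31 core and cap genes was 2460, 2367 and 2365 scaled reads in the control mice and 2292, 2332 and 2217 in the L-RalyKO mice. These sums did not overlap, and their means were 2398 ± 54.4 and 2280 ± 58.0 (SD, n = 3; two-sided exact tests at this size cannot go below p = 0.1). L-RalyKO mouse 3 had the lowest value of all 6 mice in 23 of 39 members, and control mouse 1 had the highest in 23. Without L-RalyKO mouse 3 the median log2 fold change of the tested members was -0.02, with 27 of 39 below 0, and without control mouse 1 it was -0.04, with 26 below 0. For the core and cap genes 25 of 31 were below 0 without either one. The medians of the base ATPases, the base non-ATPases and the lid were below every control mouse in every L-RalyKO mouse, while those of the alpha ring and the beta ring overlapped, as the plot of mouse medians shows.

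**Figure D3:**
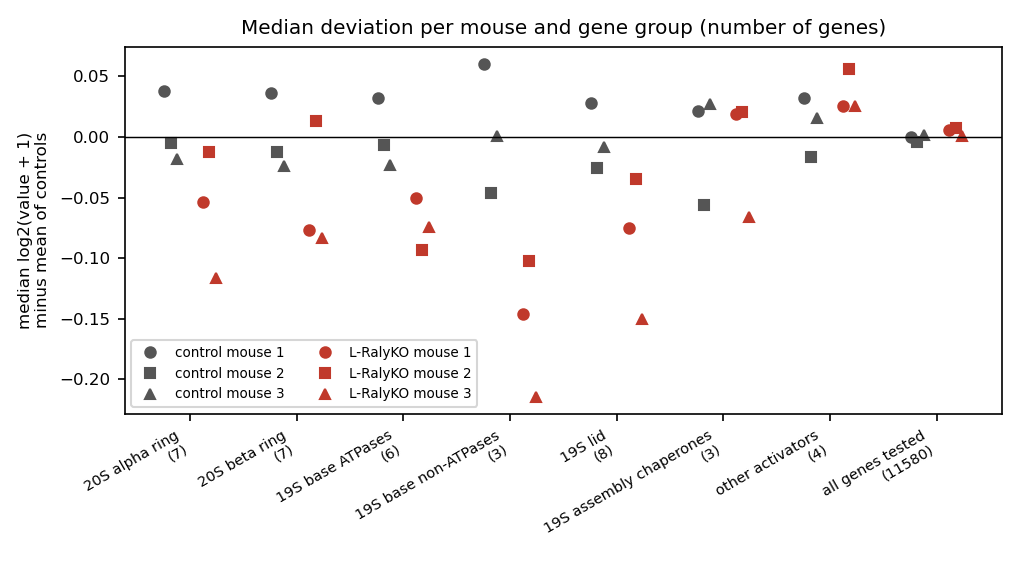
Median over the genes of each subcomplex of log2(scaled reads + 1) minus the mean of the 3 controls, for each mouse; grey marks are controls, red marks L-RalyKO, and shapes give the mouse number. For the base non-ATPases the control mice lie at 0.06, -0.05 and 0.00 and the L-RalyKO mice at -0.15, -0.10 and -0.21, while all genes tested stay within 0.01 of 0.

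Between genes, levels were compared per kb of exon (union of annotated exons, GENCODE M1). In controls the beta ring had the highest median, 73.0 scaled reads per kb, and the assembly chaperones the lowest, 7.98. Psmb7 (78.2 ± 0.928), Psmb4 (75.1 ± 1.70), Psmb1 (73.4 ± 3.72) and Psmb5 (73.0 ± 4.76) led the order. With the longest transcript as length the leading genes were Psmb4 (87.9 ± 1.99), Psmb6 (83.1 ± 1.89), Psmb7 (81.8 ± 0.972) and Psma6 (81.1 ± 2.98), so the order among the most abundant genes depended on the length used. Psmb10, the inducible subunit gene, was at 15.3 ± 1.10 per kb beside 78.2 for Psmb7. Psmd10 (5.45 ± 0.418) was the lowest of the tested members, below Psmd9 (7.98 ± 0.126) and Psmd5 (8.57 ± 0.365). Medians per kb were 33.6 for the base ATPases, 31.8 for the alpha ring, 27.7 for the base non-ATPases, 23.0 for the activators and 20.5 for the lid, an order that changes when the longest transcript is used as the length, which puts the alpha ring second and the activators below the lid.

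**Figure D4:**
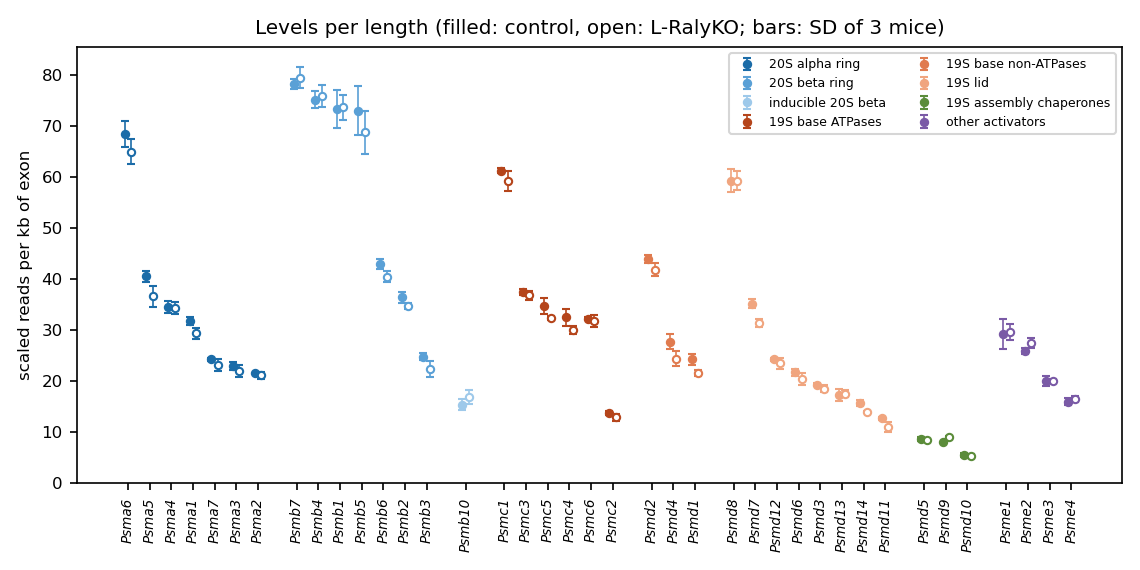
Scaled reads per kb of exon for each tested member by subcomplex, mean with SD over 3 control mice (filled) and 3 L-RalyKO mice (open). The control means of 4 beta subunit genes lie above 70 and both means of the 3 assembly chaperone genes below 10.

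Promoters were examined because the study concerns transcription and because proteasome genes are known to share 2 kinds of element. CCAAT is the box bound by the factor NFY, and TGACNNNGC is the core of the antioxidant response element bound by NRF1 and NRF2. Promoters from RefSeq (build GRCm38.p6, 250 bases before to 50 after a start) were found for 36 of the 43 members, 39 promoters in all, and both strands were searched. CCAAT occurred in 14 of 39 member promoters (35.9%), against 37.4% of all 32851 promoters of the table. TGACNNNGC occurred in 6 of 39 (15.4%), in Psmb5, Psmb6, Psmc6, Psmd9, Psmd12 and Psme4, against 12.4% of all promoters. No CCAAT match overlapped a TGACNNNGC match in any member. Of the 10 members with a promoter that were lower without overlap, 4 held CCAAT (Psma1, Psmb3, Psmd4 and Psmd14) and 1 held TGACNNNGC (Psmb6). Promoters with 3 or more CCAAT matches were 4 of 39 among members (10.3%, in Psma3, Psmd4, Psmd10 and Psmd14) and 3.37% of the table. Overlapping matches on opposite strands were counted separately, as for those at positions 4 and 7 after the start in Psmd14. In Psmd4 the matches at positions 1 and 20 lie after the start. By subcomplex CCAAT was most frequent in the alpha ring, in 5 of 8 promoters (62.5%). These counts are small and were not tested.

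The 250 bases before the start are printed for the gene with the largest difference in the core, the base, the lid and the assembly chaperones, so that the promoters can be set beside the values above. Capitals mark CCAAT, read as its complement ATTGG where it lies on the opposite strand, and the longer motif TGACNNNGC. Psmb3 (chr11:97703184-97703433, plus strand) holds 2 CCAAT boxes, Psmd4 (chr3:95042615-95042864, minus strand) 1 and Psmd11 (chr11:80428365-80428614, plus strand) none, while Psmd9 (chr5:123227940-123228189, plus strand), the gene with the opposite direction, holds TGACNNNGC from 31 to 23 bases before its start (all GRCm38.p6, written 5′ to 3′ on the gene's strand).
Psmb3: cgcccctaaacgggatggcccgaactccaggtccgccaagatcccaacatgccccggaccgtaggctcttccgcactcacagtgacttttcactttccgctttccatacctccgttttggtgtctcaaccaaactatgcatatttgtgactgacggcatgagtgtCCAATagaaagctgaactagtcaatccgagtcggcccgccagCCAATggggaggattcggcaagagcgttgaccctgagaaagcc
Psmd4: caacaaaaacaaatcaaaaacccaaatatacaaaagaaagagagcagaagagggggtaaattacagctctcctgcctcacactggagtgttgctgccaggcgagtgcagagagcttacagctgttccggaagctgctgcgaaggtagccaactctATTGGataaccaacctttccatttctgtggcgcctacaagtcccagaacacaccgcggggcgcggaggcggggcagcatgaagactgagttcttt
Psmd11: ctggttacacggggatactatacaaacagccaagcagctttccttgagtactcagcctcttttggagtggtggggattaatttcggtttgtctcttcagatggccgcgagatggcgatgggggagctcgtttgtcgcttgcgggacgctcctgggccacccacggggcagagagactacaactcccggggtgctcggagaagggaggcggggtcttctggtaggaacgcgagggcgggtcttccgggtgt
Psmd9: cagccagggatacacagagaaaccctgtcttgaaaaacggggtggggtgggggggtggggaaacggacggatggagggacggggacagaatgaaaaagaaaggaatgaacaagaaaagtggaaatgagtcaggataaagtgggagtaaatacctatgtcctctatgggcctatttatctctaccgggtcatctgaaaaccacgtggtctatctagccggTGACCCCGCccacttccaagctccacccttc

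The associated factors were described from a mixed list of 25 tested genes. Their products assemble the proteasome, belong or bind to it, regulate it or deliver substrates to it. None passed the test, and the median log2 fold change was -0.01. Pomp, the maturation factor of the core, read 74.8 ± 4.50 scaled reads in controls and 77.4 ± 2.41 in L-RalyKO. Adrm1, a ubiquitin receptor of the cap, read 77.4 ± 1.20 and 72.1 ± 6.12 (SD, n = 3). Its log2 fold change was -0.10, and -0.03 without L-RalyKO mouse 3. The log2 fold changes of the list ran from -0.17 for Zfand2a to 0.19 for Uchl5, the deubiquitinase that Adrm1 recruits.

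Of 7 genes for ubiquitin and its activating enzymes limma called none, while DESeq2, and limma without L-RalyKO mouse 2, each called 1 higher. Ubb, which encodes polyubiquitin, read 432.8 ± 11.9 and 471.2 ± 2.89 (SD, n = 3; log2 fold change 0.12, limma adjusted p = 0.153).

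Among 13 regulators of proteasome genes 3 rose and none fell, with a median log2 fold change of 0.04, where 3.36% of all genes were called higher and 3.19% lower. Mafg encodes a small MAF protein, the DNA-binding partner of NRF1 and NRF2, and rose from 29.9, 32.1 and 31.4 scaled reads in controls to 42.0, 40.3 and 37.9 in L-RalyKO (log2 fold change 0.35, limma adjusted p = 0.0111). All L-RalyKO mice were above all controls, and the adjusted p stayed between 0.000316 and 0.0495 under the other processing choices and without any 1 mouse. Mafk, a second small MAF gene, rose by 0.27 (adjusted p = 0.0410, 0.0353 to 0.141 under alternatives), and Stat3, which encodes a cytokine-activated factor, rose by 0.21 (adjusted p = 0.0372, 0.0196 to 0.134 under alternatives), both log2 fold changes from limma. Nfe2l1 itself read 147.1, 149.4 and 144.1 in controls and 166.6, 151.9 and 164.4 in L-RalyKO, without overlap and without passing the test (log2 fold change 0.13, limma adjusted p = 0.170). The NFY subunit genes Nfya, Nfyb and Nfyc overlapped between groups.

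Interferon-inducible genes were listed because Psmb10, Psme1 and Psme2 respond to interferon. Of 18 tested, limma called 2 higher and none lower, where 3.36% of all genes were called higher and 3.19% lower, and the median log2 fold change was 0.05. DESeq2 called 2 of the 18 lower, Tap1 and Igtp. Irf1, which encodes a transcription factor of the interferon response, rose from 13.5, 14.2 and 12.1 scaled reads in controls to 19.9, 21.3 and 15.5 in L-RalyKO (log2 fold change 0.47, limma adjusted p = 0.0466, 0.00248 to 0.148 under alternatives). Irf7, another factor of that response, rose from 25.6 ± 1.88 to 32.9 ± 2.98 (log2 fold change 0.35, limma adjusted p = 0.0375, 0.00498 to 0.120 under alternatives). Tap1, the peptide transporter gene that receives proteasome products, was lower without overlap, at 26.4 ± 3.13 against 20.9 ± 1.12, and did not pass with limma (adjusted p = 0.0628, against 0.0158 with DESeq2). Igtp, an interferon-inducible GTPase gene, was likewise lower at 26.2 ± 4.69 against 19.5 ± 0.837 (limma adjusted p = 0.0742, against 0.00770 with DESeq2). The markers of T, B and NK cells were at most 1.12 scaled reads in any mouse. Of these, Klrb1c was wholly higher in L-RalyKO, at 0.640, 0.261 and 0.263 against 0.179, 0.245 and 0.216 in controls, and its part in these results was not tested.

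The members' differences were at the small end of what was called anywhere. The smallest absolute log2 fold change among the 758 called genes was 0.18 (Slc25a13), 7 of them were under 0.2, and their median was 0.47, while the largest absolute value among the members was 0.21. The median standard error was 0.051 for members and 0.079 for all genes tested. The absence of a call does not show that the subunit genes were equal between groups.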

How the data were processed

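Paired-end stranded libraries of 6 livers were aligned by the authors with TopHat to mm9 and quantified with Cufflinks 2.0.2. The deposited values are a signal, reads per gene divided by effective library size times 1e+06, and how the authors counted and scaled them was not stated. The library factors implied by the values equalled trimmed-mean (TMM) factors computed with edgeR on the recovered reads. In control mouse 1 both were 1.0323, and in L-RalyKO mouse 1 both were 0.9716. Whole reads were recovered for 100% of values (within 0.05 read) and gave the depths above. The test was limma 3.58.1 (R 4.3.3), whose prior variance followed mean intensity, on log2(value + 1). Genes averaging less than 1 were dropped, and Benjamini-Hochberg adjustment ran over the remaining 11580. edgeR 4.0.16 called 728 genes and DESeq2 1.42.0 called 1088 on the recovered reads, against 758 with limma. Fits were also run on simulated data. All changes put into those data were larger than any difference among the members, so they do not show whether differences of the members' size could be called. Members and lists were chosen with earlier results of these data known. Named members were the highest and lowest of each subcomplex, catalytic subunits, Psmd4, Psmd14, the activators and those under the filter. Named related genes were those called, Nfe2l1, Pomp and Adrm1. Psmd1, Psmd7 and the other named genes were added after their values were seen. Each sample was taken to be 1 mouse. The paper gives a different number of mice per group for its RNA-seq than the 3 analysed here, and p-values measure the spread between these samples. Positions are from GENCODE M1 (mm9). The ATAC-seq and ChIP-seq samples were not used here. The values of 1 gene of the related lists are not reported here.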

Additional observations from a re-analysis of the deposited data

How the results depend on the processing

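No proteasome gene passed an adjusted p of 0.05 under any of the 15 alternatives, 6 of which left out a mouse. Total count scaling moved the median of the base ATPases to -0.10 and of the activators to 0.00142, moved that of tested members to -0.10, and turned 6 members below 0, Psmb1 (-0.0280), Psmb4 (-0.0207), Psmb7 (-0.0106), Psmd8 (-0.0333), Psmd13 (-0.0106) and Psme1 (-0.0120). With the longest transcript as length, control medians per kb were 49.1 (alpha ring), 77.2 (beta ring), 36.1 (base ATPases), 39.1 (base non-ATPases) and 33.0 (lid). Leaving out a mouse moved the median of tested members between -0.0742 and -0.0242 and turned genes near 0, with ranges of -0.0387 to 0.0196 for Psma4, -0.0504 to 0.00285 for Psmc6, -0.0916 to 0.00643 for Psmd10, -0.0300 to 0.0699 for Psmd13, -0.0588 to 0.0857 for Psme1 and -0.0442 to 0.0167 for Psme3. Ubiquitin genes called higher numbered 1 with DESeq2 and 0 to 1 without a mouse. Regulators called higher numbered 1 without the intensity trend, with total count scaling and with the replicate block, and 1 to 2 without a mouse. Interferon genes called higher numbered 0 with all genes of at least 1 read, without the trend and with total count scaling, and 0 to 1 without a mouse. Interferon genes called lower numbered 2 with DESeq2, 1 with the replicate block and 0 to 2 without a mouse. The cause of these moves was not tested. A fit with the replicate number as a block called 704 genes and no member (smallest adjusted p 0.0972). Same-numbered mice did not deviate together (r = 0.07, -0.02 and 0.02), and not every L-RalyKO mouse correlated best with its own number. Tested members had at least 209 reads in each mouse, and the median standard error of their log2 fold changes was 0.051.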
